A study of Mus musculus with 33 samples.

Results

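The liver X receptors and the genes they switch on outside the lipogenic programme were followed in mouse hippocampus after dosing with TO901317, a synthetic liver X receptor agonist. The members were all probe sets that the platform annotation ties to a single gene among 10 genes: the receptor genes Nr1h2 and Nr1h3, the transporter genes Abca1, Abcg1 and Abcg4, and the target genes Mylip, Lpcat3, Smpdl3a, Arl4c and Mertk. This gave 12 probe sets for 8 of the 10 genes, out of 45101 probe sets on the array and 18193 genes named singly. No probe set carried Nr1h2 or Arl4c as its only name here, so those genes were not analysed here. All 12 probe sets passed the filter on low signals, which kept 27022 probe sets for testing, but Abca1 1450392_at passed only through its values in treated animals and is given below without a test.

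Affymetrix MOE430 2.0 arrays were hybridised with total RNA of the right hippocampus from 33 male mice, 1 array each, in 3 groups of 11. The treated group held heterozygous Tg2576 mice given TO901317 by oral gavage at 50 mg per kg per day, the vehicle Tg2576 group held heterozygous Tg2576 mice given vehicle, and the wild-type group held non-transgenic littermates given vehicle. All animals were on an SJL × C57BL/6J background, were 20 weeks old, and were perfused 1 hour after the last dose. Dosing lasted 7 days by the series text and 5 days by the sample protocol, which differ. The Tg2576 transgene expresses human APP bearing the Swedish mutation of familial Alzheimer's disease from the prion promoter. No wild-type animals given TO901317 were analysed here, so each statement on the drug holds within Tg2576 mice.

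Liver X receptor alpha (Nr1h3) and beta (Nr1h2) are nuclear receptors that bind oxidised cholesterol, pair with a retinoid X receptor and sit on DNA at repeats of a short hexamer. In the brain they are known for driving cholesterol out of astrocytes and microglia onto apolipoprotein E particles, through the ATP-binding cassette transporters Abca1 and Abcg1. Their other direct targets act on uptake of lipoproteins (Mylip), on membrane phospholipids and nucleotides (Lpcat3, Smpdl3a), on vesicle traffic (Arl4c) and on clearance of dying cells (Mertk).

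To show what the members' promoters look like, the 250 bases before each start site were taken from the RefSeq promoter table (build GRCm38.p6) and searched on both strands for the closest match to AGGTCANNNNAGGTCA, the direct repeat with a spacer of 4 bases that liver X receptors are known to bind. The table held a window for 7 of the 10 member genes. The stretches around the closest match are given below for 4 genes measured on the array, each written 5′ to 3′ on the gene's strand with the 16 bases of the match in capitals. Abca1 is shown as the gene of largest response among those with a window, and Nr1h3, Lpcat3 and Mertk as genes that did not pass the test. The Abca1 stretch lies at chr4:53159907-53160002 (minus strand) and the Nr1h3 stretch at chr2:91195111-91195206 (minus strand). The Lpcat3 stretch lies at chr6:124662965-124663060 (plus strand) and the Mertk stretch at chr2:128698665-128698748 (plus strand).
Abca1: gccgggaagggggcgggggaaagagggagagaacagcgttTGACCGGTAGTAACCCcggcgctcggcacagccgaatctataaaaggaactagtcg
Nr1h3: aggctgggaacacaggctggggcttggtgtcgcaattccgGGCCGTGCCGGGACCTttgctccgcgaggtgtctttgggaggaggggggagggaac
Lpcat3: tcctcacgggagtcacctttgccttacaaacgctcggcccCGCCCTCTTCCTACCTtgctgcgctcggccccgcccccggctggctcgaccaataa
Mertk: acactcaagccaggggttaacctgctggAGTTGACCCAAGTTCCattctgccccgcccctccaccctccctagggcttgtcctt

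In the Abca1 window the closest match held 9 of the 12 fixed letters, read on the opposite strand, from 67 to 52 bases before the start site. Of the 32851 promoter windows in the table, 18.5% held a match at least that close. The matches of Nr1h3, Lpcat3 and Mertk held 8 letters, which 70.6% of windows reach. The Arl4c window also held 9 letters, the Nr1h2 window 8 and the Mylip window 6. No member window held all 12 letters, which 0.0152% of all windows do. These matches describe letters in a short window and are not binding measurements.

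The first comparison asked what TO901317 did to these genes in Tg2576 hippocampus. Abca1 and Abcg1 rose, and no member fell. Of the 12 member probe sets, 3 rose (1 of 3 for Abca1 and both for Abcg1), 8 did not pass and Abca1 1450392_at is left aside, where 0.0703% of all tested probe sets rose and 0.141% were called in either direction. The test was limma on log2(signal + 16) over all 33 arrays, with p-values adjusted by Benjamini-Hochberg over the 27022 probe sets and a limit of 0.05. The log2 differences of the 11 probe sets that reach the filter limit without the treated animals were all above 0, with a median of 0.22, against a median of 0.00 and 51.3% above 0 over all tested probe sets. With the brightest probe set of each gene alone, the median of the 8 members was 0.08.

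**Figure D1:**
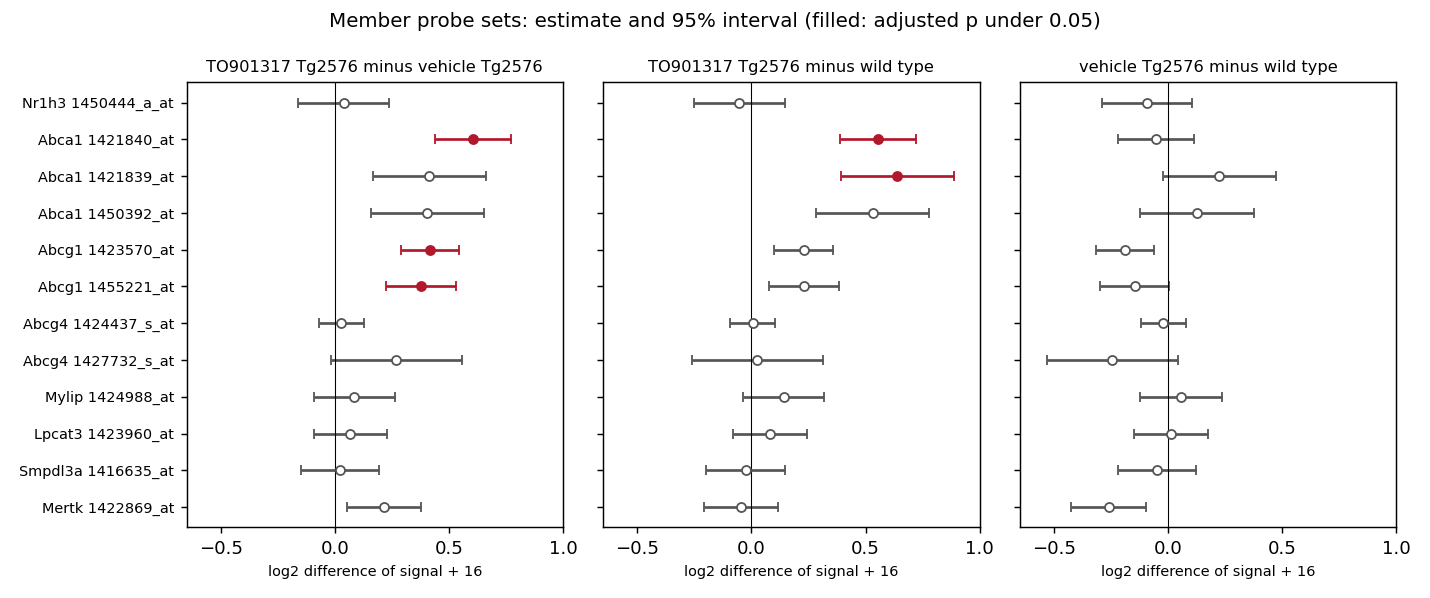
Log2 difference of each member probe set (points) with its 95% confidence interval (bars) in the 3 comparisons, filled where it passed the test (Abca1 1450392_at was kept only through its treated values), from the limma fit with 11 animals per group. The intervals of Abca1 1421840_at and of both Abcg1 probe sets in treated against vehicle Tg2576 mice lie well above 0, while those of Nr1h3, Lpcat3, Mylip and Smpdl3a span 0 in all 3 comparisons.

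Nr1h3, the only receptor gene measured, gave a dim signal and did not pass the test in any comparison. Its signal (probe set 1450444_a_at) had a lowest, median and highest value of 19.7, 22.6 and 36.4 in treated Tg2576 mice, 16.7, 19.9 and 37.6 in vehicle Tg2576 mice, and 16.5, 29.2 and 32.4 in wild type. The groups overlapped: no treated animal exceeded the highest vehicle Tg2576 value, while 10 of 11 exceeded the vehicle Tg2576 median. The log2 difference of treated from vehicle Tg2576 mice was 0.04 (95% interval -0.16 to 0.24, limma adjusted p = 0.932).

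Abca1, the transporter that loads cholesterol and phospholipid onto lipid-poor apolipoproteins, was read by 3 probe sets. The brightest, 1421840_at, had a lowest, median and highest signal of 336, 485 and 675 in treated Tg2576 mice, 278, 306 and 345 in vehicle Tg2576 mice, and 269, 320.5 and 448 in wild type. All but 1 of the 11 treated animals lay above the highest vehicle Tg2576 animal, and replicate 2 was the exception. The mean was 488 ± 89.2 in treated and 311 ± 24.0 in vehicle Tg2576 mice (SD, n = 11 each), a fold of 1.52 on the log2(signal + 16) scale. The log2 difference was 0.61 (SE 0.08, limma adjusted p = 0.000164), the smallest p of the 27022 probe sets. Because whole hippocampus was used, more cells that express a gene and more RNA per cell cannot be told apart, here and below. For this probe set the vehicle Tg2576 animals were the least spread. The coefficient of variation was 18.3% in treated Tg2576 mice, 7.71% in vehicle Tg2576 mice and 16.4% in wild type.

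The other Abca1 probe sets were dimmer, and neither counts as a call. Probe set 1421839_at had a lowest, median and highest signal of 41.5, 70.0 and 112 in treated Tg2576 mice, 31.9, 45.7 and 68.4 in vehicle Tg2576 mice, and 17.6, 38.5 and 54.2 in wild type. Its groups overlapped, with 6 of 11 treated animals above the highest vehicle Tg2576 animal, and its log2 difference was 0.41 (SE 0.12, limma adjusted p = 0.183). Probe set 1450392_at averaged 12.0 over the vehicle Tg2576 and wild-type animals, under the filter limit of 13.9, and entered the test only through the treated animals. Its signals were 13.9, 21.4 and 40.5 in treated Tg2576 mice, 4.30, 12.4 and 24.9 in vehicle Tg2576 mice, and 2.49, 13.0 and 17.3 in wild type. All 11 treated animals exceeded the vehicle Tg2576 median, and 3 exceeded the highest vehicle Tg2576 value. As this probe set had to be high in the treated group to be kept, its difference of 0.40 is a description. The drug difference of the brightest probe set exceeded that of 1421839_at by 0.19 (SE 0.11), and the gap did not pass (permutation adjusted p = 0.204). The adjustment ran over the 4 probe-set pairs of the members, including the pair with 1450392_at, which is not given as a test.

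Abcg1, which moves cholesterol to particles that already hold lipid, rose on both of its probe sets. Probe set 1423570_at had a lowest, median and highest signal of 297, 349.9 and 432 in treated Tg2576 mice, 212, 269 and 305 in vehicle Tg2576 mice, and 257, 308 and 359 in wild type. Of the treated animals, 10 of 11 lay above the highest vehicle Tg2576 animal. The log2 difference was 0.42 (SE 0.06, limma adjusted p = 0.00098). The dimmer probe set 1455221_at had 64.2, 74.0 and 113 in treated Tg2576 mice, 45.5, 56.6 and 68.7 in vehicle Tg2576 mice, and 51.2, 61.7 and 86.0 in wild type. Here 9 of 11 treated animals lay above the highest vehicle Tg2576 animal, with a log2 difference of 0.38 (SE 0.08, limma adjusted p = 0.0246). The drug differences of the probe sets were 0.04 apart (SE 0.10, permutation adjusted p = 0.692). Without vehicle Tg2576 replicates 3 and 4, described below, the difference of 1455221_at was 0.39 and its adjusted p was 0.064, and without treated replicate 10 they were 0.36 and 0.0566. With the endothelial marker score in the fit they were 0.37 and 0.0602.

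**Figure D2:**
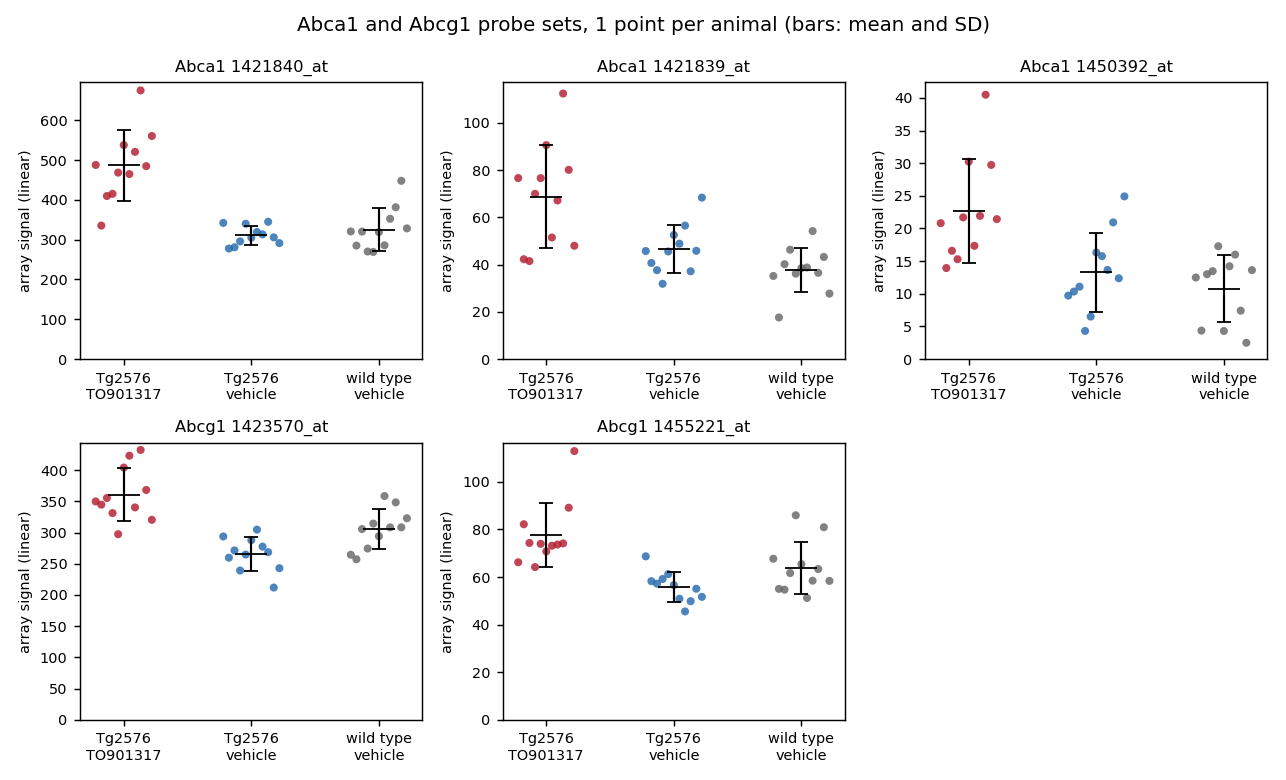
Array signal (linear scale, from 0) of the 3 Abca1 and 2 Abcg1 probe sets in every animal, 1 point each, with the group mean and SD as bars (n = 11 per group). For Abca1 1421840_at and Abcg1 1423570_at, 10 of 11 treated animals stand above every vehicle Tg2576 animal, and the wild-type means of Abcg1 lie between those of the other groups.

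Abcg4, a relative of Abcg1 that is found mainly in neural cells, was read by 2 probe sets and passed on neither. Probe set 1424437_s_at was tight, with a lowest, median and highest signal of 238, 247 and 281 in treated Tg2576 mice, 206, 243 and 286 in vehicle Tg2576 mice, and 219.7, 246 and 290.3 in wild type. The groups overlapped throughout, and the log2 difference was 0.03 with a 95% interval of -0.07 to 0.13 (limma adjusted p = 0.894). Probe set 1427732_s_at had 65.4, 99.5 and 122 in treated Tg2576 mice, 31.8, 85.7 and 128 in vehicle Tg2576 mice, and 72.6, 89.5 and 133 in wild type. Its log2 difference was 0.27 (95% interval -0.02 to 0.56, limma adjusted p = 0.509), and without vehicle Tg2576 replicates 3 and 4 it was 0.07. The drug difference of 1424437_s_at was 0.24 below that of 1427732_s_at (-0.24, SE 0.19, permutation adjusted p = 0.284).

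The other 4 targets did not pass. Mylip, the ubiquitin ligase that sends lipoprotein receptors for degradation, had a lowest, median and highest signal of 172, 222 and 281 in treated Tg2576 mice, 133, 206 and 262 in vehicle Tg2576 mice, and 160.3, 204 and 229 in wild type. Treated Tg2576 mice differed from vehicle Tg2576 mice by 0.08 on the log2 scale (95% interval -0.09 to 0.26, limma adjusted p = 0.789). Lpcat3, which puts polyunsaturated chains into membrane phospholipids, had 105, 114 and 170.3 in treated Tg2576 mice, 88.7, 115 and 135 in vehicle Tg2576 mice, and 80.2, 115 and 141 in wild type. The medians of the groups were nearly equal, and the log2 difference was 0.07 (95% interval -0.09 to 0.23, limma adjusted p = 0.818). Smpdl3a, a secreted phosphodiesterase known as a receptor target from human macrophages, had 182, 219 and 308 in treated Tg2576 mice, 185, 216 and 259.9 in vehicle Tg2576 mice, and 187, 221 and 340.5 in wild type. Its log2 difference was 0.02 (95% interval -0.15 to 0.19, limma adjusted p = 0.955). For Nr1h3, Mylip, Lpcat3, Smpdl3a and the tight Abcg4 probe set, the upper bounds of these intervals were at most 0.26. They lay below the lower bounds for Abca1 1421840_at (0.44) and Abcg1 1423570_at (0.29). Not all of them lay below those for Abcg1 1455221_at (0.22) and Abca1 1421839_at (0.17). The upper bounds of Mertk (0.38) and Abcg4 1427732_s_at (0.56) were higher. Differences of dim probe sets, such as that of Nr1h3, are understated on this scale.

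Mertk, a receptor by which phagocytes and astrocytes take up dying cells and synapses, had a difference of intermediate size that did not pass. Its lowest, median and highest signals were 189, 219.7 and 275 in treated Tg2576 mice, 156, 209.9 and 227 in vehicle Tg2576 mice, and 179, 248 and 309 in wild type. Of the treated animals, 5 of 11 lay above the highest vehicle Tg2576 animal. The log2 difference was 0.22 (95% interval 0.05 to 0.38), with a limma adjusted p of 0.314. Its unadjusted p was 0.011, and 10.5% of all tested probe sets had an unadjusted p under 0.05. With the astrocyte marker score in the fit it was 0.16, and with the endothelial score 0.14.

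**Figure D3:**
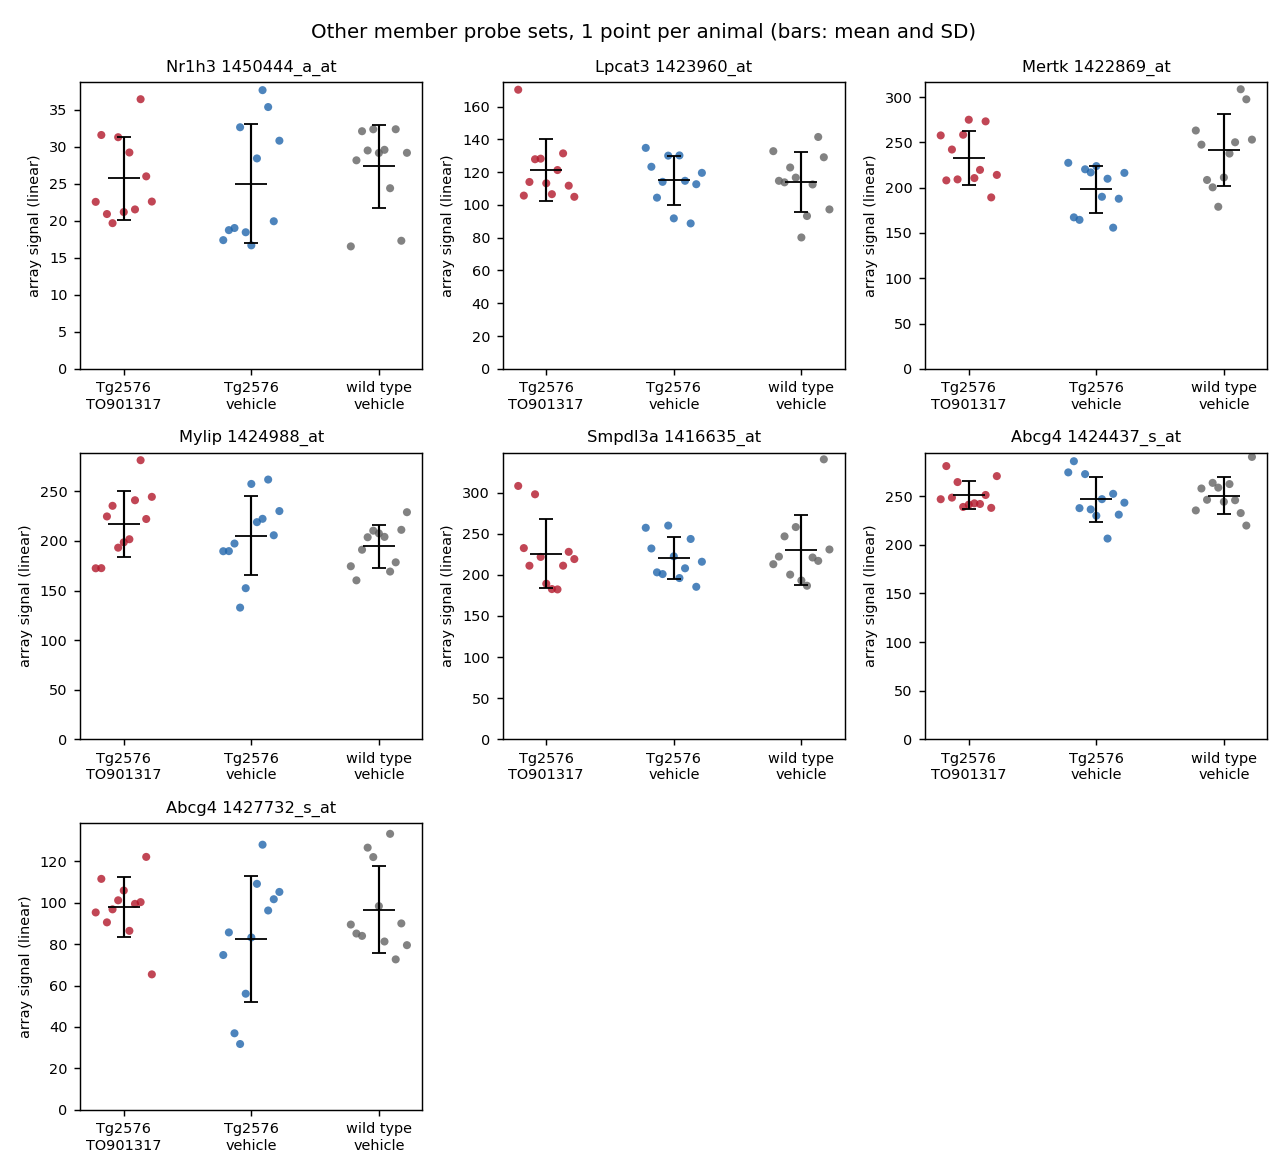
Array signal (linear scale, from 0) of the 7 other member probe sets in every animal, 1 point each, with the group mean and SD as bars (n = 11 per group). The groups overlap in every panel, and the vehicle Tg2576 animals of Mertk reach no higher than 227.

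The next comparison asked what the transgene did without the drug. None of the 12 member probe sets passed in vehicle Tg2576 mice against wild type, where limma called 0.159% of all tested probe sets. At an unadjusted p under 0.05 there were 2 of 12, both with lower signals in vehicle Tg2576 mice, and 9.7% of all tested probe sets reach that limit. Mertk differed by -0.26 on the log2 scale (95% interval -0.42 to -0.10, limma adjusted p = 0.207), and Abcg1 1423570_at by -0.19 (95% interval -0.32 to -0.06, limma adjusted p = 0.268). For each of these probe sets, 0 of 11 vehicle Tg2576 animals exceeded the wild-type median and 3 were below the lowest wild-type value. With the astrocyte score in the fit the Mertk difference was -0.16 (limma adjusted p = 0.548). Abcg1 1455221_at differed by -0.15 (limma adjusted p = 0.537), and 1 of 11 vehicle Tg2576 animals exceeded the wild-type median.

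For Abca1 the 3 probe sets gave -0.05, 0.22 and 0.13 for 1421840_at, 1421839_at and 1450392_at (limma adjusted p = 0.882 and 0.567 for the first and second), so their signs differed. Nr1h3 differed by -0.09, Mylip by 0.06, Lpcat3 by 0.01, Smpdl3a by -0.05, and the Abcg4 probe sets by -0.02 and -0.25. Without vehicle Tg2576 replicates 3 and 4 the difference of Abcg4 1427732_s_at was -0.046. The median over the 11 probe sets that reach the filter limit without the treated animals was -0.05, against 0.00 over all tested probe sets.

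The last comparison set treated Tg2576 mice against wild type. Only Abca1 passed, on 2 of the 12 member probe sets, where 0.0703% of all tested probe sets rose and 0.144% were called in either direction. Abca1 1421840_at differed by 0.55 (SE 0.08, limma adjusted p = 0.000341), with 8 of 11 treated animals above the highest wild-type animal. Abca1 1421839_at differed by 0.64 (SE 0.12, limma adjusted p = 0.00969), with 7 of 11 above. Abca1 1450392_at, kept only through the treated animals, differed by 0.53 as a description.

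Abcg1 did not pass against wild type. Its probe sets differed by 0.23 each (limma adjusted p = 0.154 for 1423570_at and 0.305 for 1455221_at), with 4 and 2 of 11 treated animals above the highest wild-type animal. Its log2 differences in the 3 comparisons were thus 0.42, -0.19 and 0.23 for 1423570_at, in the order drug, transgene and both, against 0.61, -0.05 and 0.55 for Abca1 1421840_at. The comparisons share animals, so these values are not independent of each other. Mertk differed by -0.05 from wild type (limma adjusted p = 0.949) and Mylip by 0.14 (limma adjusted p = 0.736).

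Within a group, animals with more Abca1 did not detectably have more Abcg1. Between the brightest probe sets, Pearson's r was 0.384 in treated Tg2576 mice (permutation p = 0.243), 0.35 in vehicle Tg2576 mice (p = 0.296) and 0.269 in wild type (p = 0.426), n = 11 each. Spearman's rho was 0.191 in treated Tg2576 mice (permutation p = 0.576), 0.409 in vehicle Tg2576 mice (p = 0.215) and 0.291 in wild type (p = 0.385). Adjusted over the 3 groups, every p was 0.426 for r and 0.576 for rho. Without the 2 animals farthest from the median of Abca1, r was 0.0447 in treated Tg2576 mice, 0.233 in vehicle Tg2576 mice and 0.0838 in wild type.

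**Figure D4:**
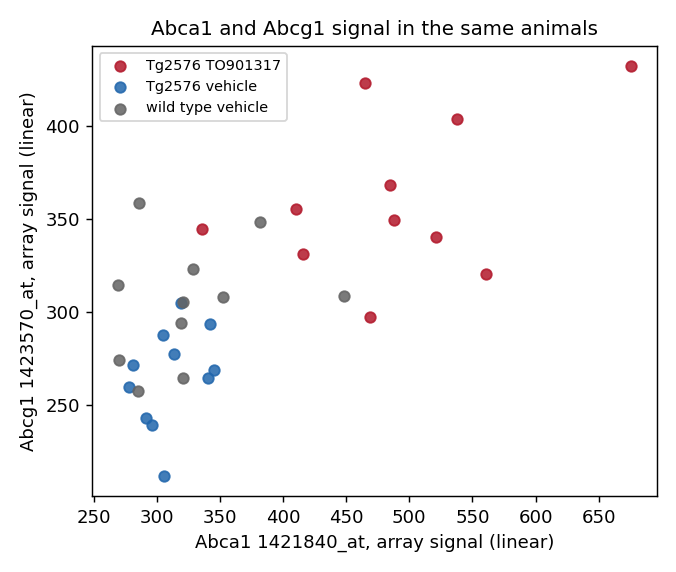
Abca1 1421840_at signal (x axis) against Abcg1 1423570_at signal (y axis), both linear, 1 point per animal. Except for replicates 2 and 5, each treated animal exceeds every vehicle Tg2576 animal on both axes, and treated replicate 9 has the highest value on both axes (675 and 432).

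One treated animal, replicate 9, was the highest of its group in 6 of the 12 member probe sets: all 3 of Abca1, Abcg1 1423570_at, Mylip and Nr1h3. Without it the drug difference was 0.56 for Abca1 1421840_at (limma adjusted p = 0.000425), 0.39 for Abcg1 1423570_at (0.00332) and 0.38 for Abcg1 1455221_at (0.041), so the calls did not rest on that animal. Vehicle Tg2576 replicate 4 was the lowest of its group in 4 of the 12 probe sets: Mylip, Abca1 1421839_at, Abca1 1450392_at and Abcg4 1427732_s_at.

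The genes whose signal followed a member most closely within groups are given as a description, since they were picked as the most alike among 23028 probe sets over 33 arrays. For Abca1 these were Scpep1 (r = 0.708), Ccdc141 (0.677) and Tdrd3 (0.665). For Abcg1 they were Bmpr2 (0.69), Ahsa1 (0.654) and Zfp281 (0.653), and for Nr1h3 they were Wwox (0.627), Mtx3 (0.601) and Slc22a5 (0.598).

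The lipogenic and apolipoprotein targets of the same receptors were the one neighbouring list in which genes passed after TO901317, counted over the brightest probe set of each gene. Of its 14 tested genes, 3 rose and none fell, where 0.0703% of all tested probe sets rose. The median log2 difference was 0.15 in treated against vehicle Tg2576 mice, and 0.00 over all tested probe sets. All lists were chosen with earlier results of these data known, so their counts beside that share are a description. Srebf1, which switches on fatty acid synthesis, averaged 290.5 ± 46.2 in treated and 181 ± 22.0 in vehicle Tg2576 mice, a log2 difference of 0.63 (limma adjusted p = 0.000164). Scd1, which desaturates fatty acids, differed by 0.66 (limma adjusted p = 0.00205), and Apod, a lipid carrier, by 0.78 (limma adjusted p = 0.00956). Against wild type, Apoc1 passed beside these 3 genes, with a log2 difference of 0.71 (limma adjusted p = 0.0464).

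In the other pathway lists no gene passed with the drug. They covered the retinoid X receptors and cofactors (10 tested genes, median 0.00), the enzymes that make or break down sterol ligands (6), the receptors degraded through Mylip with their ubiquitin-conjugating enzymes (5), and the relatives and ligands of Mertk (4). They also covered the other ABCA and ABCG transporters (10), the other lysophospholipid acyltransferases (7) and the other sphingomyelin phosphodiesterases (5). The genes of smallest p in the first 3 were Med1, a mediator subunit, with -0.19 (limma adjusted p = 0.178), Ch25h, which makes 25-hydroxycholesterol, with 0.47 (0.266), and Vldlr, a lipoprotein receptor, with -0.10 (0.584).

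In the remaining 4 lists the genes of smallest p were Tyro3, a relative of Mertk, with 0.10 (limma adjusted p = 0.755), Abca2 with 0.26 (0.351), Lpgat1 with -0.07 (0.514) and Smpd2 with 0.20 (0.348). In vehicle Tg2576 mice against wild type no gene of any of these 8 lists passed. All 4 relatives and ligands of Mertk had a log2 difference below 0 there, between -0.13 for Axl (limma adjusted p = 0.594) and -0.02 for Pros1 (0.973). In the other lists the share above 0 ran from 1 of 5 other sphingomyelin phosphodiesterases to 8 of 10 other ABCA and ABCG transporters. Over all tested probe sets, 50.1% of the differences were above 0.

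The labelled tissue showed the markers of hippocampal neurons and glia. With the drug no tested gene of the neuron (10), astrocyte (10), microglia (9), oligodendrocyte (9), choroid plexus (8) or meninges (10) lists passed. Of 9 endothelial and pericyte genes 1 rose, where 0.0703% of all tested probe sets rose: Slco1a4, an organic anion transporter, by 0.42 (limma adjusted p = 0.025). The median of these 9 genes was 0.05, and 7 had differences above 0. The summed endothelial and pericyte signal was 1425 to 2012 in treated Tg2576 mice, 1414 to 1757 in vehicle Tg2576 mice and 1343 to 2342 in wild type. The summed astrocyte signal was 10773 to 13318 in treated Tg2576 mice, 9803 to 11487 in vehicle Tg2576 mice and 10004 to 13263 in wild type. The summed neuron signal was 7552 to 8896 in treated Tg2576 mice, 6579 to 8238 in vehicle Tg2576 mice and 7871 to 9721 in wild type. Choroid plexus, which lies beside the hippocampus, varied most, with summed signals of 919 to 8495 in treated Tg2576 mice, 192 to 7072 in vehicle Tg2576 mice and 345 to 9675 in wild type. With the choroid plexus, astrocyte, endothelial or neuron score in the fit, the drug difference was 0.56 to 0.61 for Abca1 1421840_at and 0.41 to 0.44 for Abcg1 1423570_at, and all passed, while Abcg1 1455221_at gave 0.37 to 0.43 and did not pass with the endothelial score. Without passing the test, 7 of 8 choroid plexus genes had differences above 0 with the drug (median 0.24) and all 10 meninges genes had differences below 0 (median -0.17). The summed meninges signal was 726 to 2133 in treated Tg2576 mice, 954 to 2960 in vehicle Tg2576 mice and 819 to 3203 in wild type.

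In vehicle Tg2576 mice against wild type, 9 of 10 meninges genes had differences above 0 (median 0.38). There 8 of 10 astrocyte genes (median -0.15) and 8 of 9 oligodendrocyte genes (median -0.16) had differences below 0. The part of the meninges and oligodendrocyte signals in the member differences was not tested. One of the astrocyte genes fell in this comparison: Slc4a4, a bicarbonate transporter, by 0.27 (-0.27, limma adjusted p = 0.00279).

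The arrays had a trimmed mean signal of 99.97 each and medians between 19.4 and 28.9. The 3'/5' ratio of the Gapdh control probe sets, which reads RNA integrity, was 0.11 and 0.08 on the log2 scale in vehicle Tg2576 replicates 3 and 4, and at most -0.077 elsewhere. Without them the drug difference was 0.59 for Abca1 1421840_at (limma adjusted p = 0.0014) and 0.41 for Abcg1 1423570_at (0.00524). With 11 arrays a group, precision is bounded by their number.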

How the data were processed

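Total RNA of 33 hippocampi was hybridised to MOE430 2.0 arrays, 1 per animal. The authors deposited linear array intensity values, called signal here, which they made with MAS5 per the submitters' processing notes, with version and settings not given in the sources used here. The mean after trimming 2 percent at each end was nearly equal across arrays while their medians differed, so a global scaling had been applied and no quantile normalization. No arrays held identical values (highest correlation 0.987). Names came from GEO's platform annotation and may be outdated: 34945 probe sets name 1 gene, 932 several and 9160 none here, and 64 are controls.

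From these values, log2(signal + 16) was tested after leaving out the lowest 40 percent of probe sets by mean (limit 13.9). Group means were estimated from all arrays in limma 3.58.1 (R 4.3.3), using lmFit, contrasts.fit and eBayes with its trend and robust options, with Benjamini-Hochberg adjustment over all 27022 probe sets. Fold changes on this scale understate changes of dim genes. Correlations used 100000 permutations, two-sided. The procedure was tested on data simulated with each probe set's own spread and independent normal noise, in 5 draws with 200 changed probe sets each. There the drug comparison called 26.5% of true log2 changes of 0.25, 81.7% of 0.5 and 98.7% of 1. In the real data the drug comparison called 38 probe sets, so recovery may be lower than in the simulation. A true change near 0.25 would thus often not pass.

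Replicates are animals, numbered by the labels. Lists were counted over each gene's brightest probe set, naming up to 4 genes that passed with the drug, or else the gene of smallest p. The genes of closest pattern were the 3 of highest group-centred r. Endothelial and astrocyte genes other than by this rule were named after their values were seen. Members and lists were chosen with earlier results of these data known. Marker scores are mean log2 signals of a list, and the astrocyte, endothelial and neuron scores were added after seeing the data.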

Additional observations from a re-analysis of the deposited data

How the results depend on the processing

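Alternatives covered the pseudocount, the filter, quantile normalization, 1 probe set per gene, the arrays in the fit, the variance model, a replicate block, the Gapdh ratio and 4 marker scores as covariates, and animals left out. The drug calls of Abca1 1421840_at and Abcg1 1423570_at held under each of these. With 1 animal left out in turn, their log2 differences were 0.56 to 0.66 and 0.39 to 0.44, Abcg1 1455221_at gave 0.33 to 0.40, and the members called numbered 2 to 3 with the drug, 0 for the transgene and 2 to 3 against wild type. Against wild type, Abca1 1421840_at gave 0.51 to 0.60 and Abca1 1421839_at 0.57 to 0.69.

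Abcg1 1455221_at did not pass with the endothelial score (0.37, limma adjusted p = 0.0602), so 2 member probe sets rose there. With 1 probe set per gene, 1 of 8 passed against wild type, which follows from the fewer probe sets. Counts of 3 against wild type, also reached under quantile normalization, with the Gapdh ratio and without vehicle Tg2576 replicates 3 and 4, include Abca1 1450392_at, which is in the test only through its treated values, and add no support. With a pseudocount of 1, the gap between the Abcg1 probe sets was -0.023 (permutation adjusted p = 0.848). The gap between Abca1 1421840_at and 1450392_at was -0.16 there, as a description, since 1450392_at was kept only through its treated values. Only the constant added to the signal differed between these settings, and the larger constant understates differences of dim probe sets more.

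Of values that never passed, Smpdl3a with the drug was -0.016 with the choroid plexus score, -0.0029 without vehicle Tg2576 replicates 3 and 4, -0.021 with the astrocyte score and -0.042 with the endothelial score. For the transgene, Smpdl3a was 0.033 with the astrocyte and 0.030 with the endothelial score, Abca1 1421840_at was 0.027 with the astrocyte and 0.0032 with the endothelial score, and Lpcat3 was -0.077 with the neuron score. Against wild type, Smpdl3a was 0.012 and Mertk 0.0014 with the astrocyte score, Abcg4 1424437_s_at was -0.013 with the neuron score, and Abcg4 1427732_s_at was -0.039 with the Gapdh ratio and -0.026 with the astrocyte score.

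Over all probe sets, the drug calls numbered 38, but 9 without vehicle Tg2576 replicates 3 and 4, 59 with the lowest 60 percent left out, 88 with the neuron score, 19 with the endothelial score and 14 to 51 with 1 animal left out. The transgene calls numbered 43, but 66 with the Gapdh ratio, 25 with only the groups compared in the fit, 28 with the astrocyte score, 27 with the endothelial score and 25 to 58 with 1 animal left out. Calls against wild type numbered 39, but 66 with the lowest 60 percent left out, 59 with the Gapdh ratio and 25 to 61 with 1 animal left out.

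Replicate numbers were not used to pair the animals in the main fit. After group means were removed, arrays of equal number had correlations of -0.15 to 0.26 (median 0.08). Of these 33 pairs, 13 had a correlation over 0.1, and 4 of 33 arrays matched best with their own number. Whether equal numbers mark a shared processing step was not tested. With a replicate block, 3, 0 and 2 member probe sets passed in the drug, transgene and wild-type comparisons, as without it. Array signals near the filter limit, such as Abca1 1450392_at, limit what the dim probe sets can show.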
